A study of Mus musculus with 32 samples.

Results

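Solute carriers are the membrane proteins that move amino acids, sugars, ions, metals, nucleosides, lipids and metabolites into and out of cells and organelles. Their genes were followed here as every probe set annotated to 1 gene whose symbol begins with Slc and a digit. Slc3a2, the shared heavy chain of several amino acid exchangers, was set aside from this list. The rule found 184 probe sets for 150 genes in 40 Slc families, among 12422 probe sets for 8251 genes on the array, and 1 further probe set that matched several Slc genes was left out. Of the 150 genes, 121 had 1 probe set and 29 had several. The rule works on names alone, so it also took the related scaffold proteins Slc9a3r1 and Slc9a3r2, which bind membrane carriers, and Slc4a1ap, which binds the anion exchanger of red cells. These 3 are not themselves carriers.

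The study used C2C12 cells, a mouse myoblast line that stops dividing and fuses into myotubes when serum is withdrawn, and it had 32 arrays in 2 arms. In the first arm, untreated control cells and cells given trichostatin A (TSA), an inhibitor of class I and class II histone deacetylases, were sampled in growth medium, called 0 h here, and then at 4, 12, 24 and 48 h of differentiation; each of the 10 groups has 2 arrays. In the second arm, cells carrying the vector pHan and cells carrying pHan-Sir2, named for the NAD-dependent deacetylase Sir2, were sampled at 12 and 36 h of differentiation; each of the 4 groups has 3 arrays. The labels give no dose of TSA and do not say whether it was washed out before the change of medium, nor which clone or pool of infected cells was used.

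A differentiating myoblast changes what it imports. Leucine and other large neutral amino acids enter through the exchanger formed by Slc7a5 and Slc3a2, and small neutral ones through Slc1a4, Slc1a5 and Slc38a2. Mature muscle takes up glucose through the insulin-responsive Slc2a4, exchanges sodium for calcium through Slc8a1, takes up taurine and creatine through Slc6a6 and Slc6a8, and brings acyl-carnitine into mitochondria through Slc25a20. Many carriers respond to supply: amino acid starvation acts on several promoters through the factor ATF4, low oxygen acts through HIF, and sterol shortage through SREBP.

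For 123 of the 150 genes, RefSeq (GRCm38.p6) gave 174 start sites, and the 250 bases before each were searched on both strands for motifs that these pathways use. Slc7a5, Slc12a2 and Slc6a6 were not among them. The core of the hypoxia element, ACGTG, was in 38 of the 174 carrier promoters (21.8%) and in 16.6% of all 32851 promoters in the table. The ATF4 and C/EBP element, searched as TGATGNAAT or TTGCATCA, was in 2.87% of the carrier promoters and 1.44% of all. The metal element TGCNCNC was in 48.3% and 44.4%, and the sterol element TCACNCCAC in 2.3% and 1.05%. Shown here are promoters of 3 carriers whose response to TSA is described below, each 5′ to 3′ on the strand of its gene, with the motif in capitals. Slc20a1 (chr2:129198523-129198772, plus strand) held the palindrome CACGTG, which is ACGTG read on each strand, at 2 places, and Slc25a1 (chr16:17928220-17928469, minus strand) held it once. Slc23a2 (chr2:132145321-132145570, minus strand) held the sterol element just before the start given there.
Slc20a1: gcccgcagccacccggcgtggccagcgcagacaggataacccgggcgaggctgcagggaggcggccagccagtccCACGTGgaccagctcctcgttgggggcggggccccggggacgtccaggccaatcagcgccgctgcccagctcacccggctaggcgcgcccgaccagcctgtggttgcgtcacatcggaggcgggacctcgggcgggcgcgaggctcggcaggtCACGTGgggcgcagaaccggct
Slc25a1: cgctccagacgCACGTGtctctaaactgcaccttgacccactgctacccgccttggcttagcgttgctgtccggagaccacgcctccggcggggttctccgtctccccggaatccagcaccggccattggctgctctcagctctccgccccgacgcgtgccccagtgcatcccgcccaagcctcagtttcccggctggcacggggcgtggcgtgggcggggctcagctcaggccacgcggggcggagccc
Slc23a2: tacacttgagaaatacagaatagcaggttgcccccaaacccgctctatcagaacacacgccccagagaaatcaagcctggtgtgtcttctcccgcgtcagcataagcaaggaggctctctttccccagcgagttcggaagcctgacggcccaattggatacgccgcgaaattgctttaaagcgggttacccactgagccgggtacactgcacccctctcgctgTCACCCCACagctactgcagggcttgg
A match of letters is a description of the sequence only. No factor binding was measured.

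The values of the TSA arm are deposited intensities, 21 to 24.2% of them at or below 0 on each array, and those of the Sir2 arm are MAS5 signals, all above 0. The arms were scaled separately, so levels are compared within an arm only. Array medians ran from 252.8 to 286.7 in the TSA arm and from 50.44 to 57.57 in the Sir2 arm, and the number of arrays limits the precision. Changes are differences of log2(value + pseudocount), which understates the change of weak probe sets, with standard errors (SE) from limma. A probe set is said to rise or fall where the Benjamini-Hochberg adjusted p over the 7453 probe sets tested in that arm was under 0.05. The labels do not say that replicate arrays came from separate cultures, so these p-values measure only the spread between the arrays. Sirt1, the mouse homologue of Sir2, read 9.48 to 20.3 on the vector arrays and 37.5 to 48.7 on the Sir2 arrays at 12 h, and 19.6 to 39.4 against 35.8 to 80.5 at 36 h, where the groups overlap.

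Muscle markers moved with the comparisons below. Of 11 probe sets for myoblast and myotube markers tested in the TSA arm, 10 rose and 1 fell from 0 to 48 h in control cells. Over all probe sets 35.3% passed. The summed intensity of the markers went from 10170-11150 to 79820-85590. The summed intensity at 48 h was higher with TSA, 109200-124700. At 24 h it was 38940-40550 in controls and 39170-41640 with TSA. At that time 2 of the 11 probe sets were higher with TSA and 3 lower, where 5.94% of all probe sets passed. The markers were thus mixed at 24 h. As 1 example of a lower reading, Acta1, skeletal alpha-actin, read 2802 ± 571 with TSA and 6195 ± 525 in controls (SD, n = 2). In the Sir2 arm the summed signal was 8492-9173 in vector and 5276-5880 in Sir2 cells at 12 h, and 18180-19070 and 13910-15720 at 36 h. Of 12 marker probe sets tested there, 0 were higher and 8 lower in Sir2 cells at 12 h, beside 5.55% of all. At 36 h 2 were higher and 4 lower, beside 9.26%. Among markers of other cells, all 8 leukocyte probe sets were dim in both arms, and 2 of 5 neuron probe sets were tested. Both were higher with TSA at 0 h, where 17.9% of all probe sets passed. The summed neuron intensity at 0 h was 1343-1626 with TSA and 412.6-539.8 in controls. Neither passed at 4, 12, 24 or 48 h, and 1 was higher in the mean of TSA, beside 22% of all. Both neuron probe sets were higher in Sir2 cells in the mean over the times, beside 12.6% of all. The 1 tested adipocyte probe set, for the lipase Lpl, was higher in Sir2 cells at 36 h, by 0.97, and in the mean, by 0.81. Over all probe sets 9.26% and 12.6% passed in these comparisons. The part of these marker genes in the carrier results was not tested. These are whole cultures, so fewer cells of a kind and less RNA per cell cannot be told apart.

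Of the 184 carrier probe sets, 107 (58.2%, 94 genes) were bright enough to be tested in the TSA arm and 102 (55.4%, 91 genes) in the Sir2 arm, beside 60% of all probe sets. Both arms tested 90 of them, and 65 were dim in both. The 37 carrier probe sets at or below 0 on over 9 of the 20 TSA-arm arrays were all among the dim ones. Brightness differed by cargo. Of 29 probe sets for amino acid carriers 12 were tested in the TSA arm, of 24 for mitochondrial carriers 20, of 23 for metal carriers 17, of 28 for vitamin, choline and organic ion carriers 16, and of 14 for nucleoside and nucleotide sugar carriers 12. The only peptide carrier on the array was dim in both arms.

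Carriers passed at shares near or below those of all probe sets, except at 24 h of TSA. From 0 to 48 h in control cells 29 of the 107 probe sets passed the test, 13 higher and 16 lower, where 35.3% of all probe sets passed, and across the 5 control times 40 passed, beside 40% of all. From 0 to 48 h in TSA-treated cells 26 passed, beside 26.4%. TSA against control gave 15 at 0 h (14% of carriers beside 17.9% of all), 9 at 4 h (8.41% beside 11.4%) and 4 at 12 h (3.74% beside 4.08%). It gave 11 at 24 h (10.3% beside 5.94%) and 19 at 48 h (17.8% beside 19.6%). The mean of TSA against control over the 5 times gave 23, 11 higher and 12 lower (21.5% beside 22%). The effect of TSA differed between times for 23 (21.5% beside 22.2%). In the Sir2 arm 28 of 102 passed between 12 and 36 h in vector cells, beside 32.1%. Sir2 against vector gave 6 at 12 h (5.88% of carriers beside 5.55% of all) and 4 at 36 h (3.92% beside 9.26%). It gave 8 in the mean over both times (7.84% beside 12.6%) and 1 whose effect differed between the times (0.98% beside 1.76%). The median change of the tested carriers lay within 0.12 log2 units of the median of all probe sets in each of these comparisons that has a direction, 0.07 beside 0.01 for control cells at 48 h against 0 h and -0.05 beside -0.03 for the mean of TSA.

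**Figure D1:**
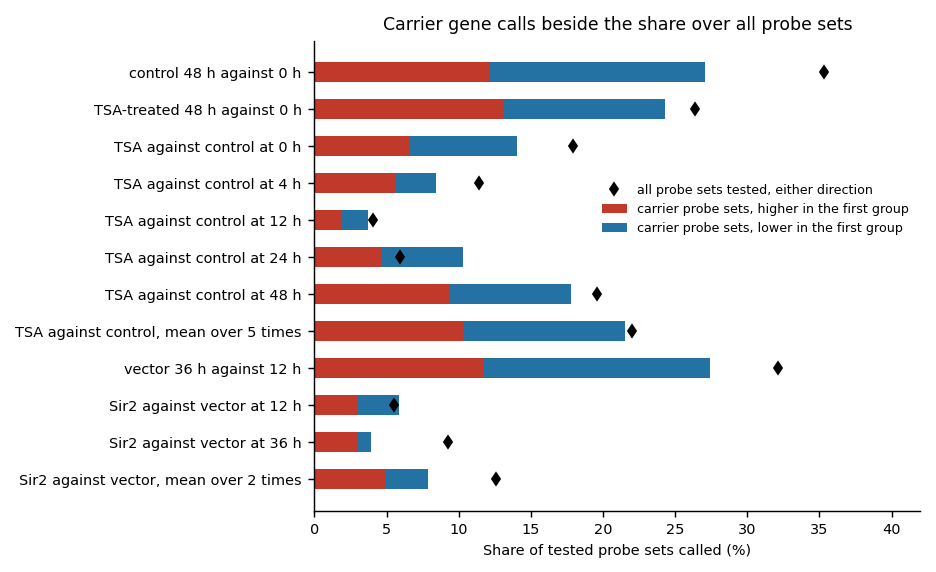
Bars show the share, in percent, of tested carrier probe sets that passed the test in each comparison, split by direction, and diamonds the share over all tested probe sets. The bars lie near or below the diamonds except at 24 h of TSA, where 11 of 107 carriers passed beside 5.94% of all.

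Amino acid carriers of control cells split as they differentiated. Of 12 tested probe sets 3 rose and 1 fell from 0 to 48 h, where 35.3% of all probe sets passed. Slc7a5, the leucine exchanger, read 4416 and 3786 on the control arrays at 0 h, 2734 and 3723 at 4 h, 2818 and 3271 at 12 h, 11578 and 9604 at 24 h and 12164 and 14514 at 48 h. Its early and late values do not overlap, and the rise from 0 to 48 h was 1.67 log2 units (SE 0.17, adjusted p = 8.68e-06), or 3.25-fold between the means. Slc38a2, a sodium-coupled carrier of small neutral amino acids, went the other way: 2028 and 2823 at 0 h became 983 and 1056 at 48 h, a fall of 1.13 (SE 0.23, adjusted p = 0.00191). Slc1a4, the alanine, serine and cysteine carrier, read 1321 and 1401 at 0 h, at most 779 at 4 and 12 h, 2364 and 2030.4 at 24 h, and 1193 and 1222 at 48 h. It peaked at 24 h and ended where it had begun, with a 48 h change of -0.16 that did not pass. Slc6a20b, a relative of the imino acid carriers, rose by 1.89 (adjusted p = 0.0114), a call lost without control 48 h replicate 1 (adjusted p = 0.0914) or control 0 h replicate 1 (0.0611).

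Of 9 tested probe sets for ion exchangers and cotransporters 2 rose and 0 fell from 0 to 48 h in control cells, beside 35.3% of all. Slc12a2, which brings in sodium, potassium and chloride together, read 1138 and 1256 at 0 h, between 1380.4 and 1647 at 4 and 12 h, 1945 and 2206 at 24 h and 3801 and 3932 at 48 h in control cells. The 48 h values are above all earlier ones, and the rise was 1.59 (SE 0.13, adjusted p = 1.69e-06). Slc8a1, the sodium-calcium exchanger, went from 420.1 and 486 at 0 h through 884 and 1026 at 24 h to 2288 and 1425 at 48 h, a rise of 1.72 (SE 0.20, adjusted p = 2.81e-05). Slc29a1, which carries nucleosides such as adenosine and uridine across the cell surface, was the largest rise of all carriers that kept its call in every setting: 5009.8 and 5448 at 0 h, 9019 and 8925 at 12 h, and 19770.0 and 18063 at 48 h. That is 3.62-fold between the means and 1.83 log2 units (SE 0.18, adjusted p = 4.98e-06). A weak further probe set of Slc29a1 went the same way without passing, at 0.45 (adjusted p = 0.235).

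Among 20 tested probe sets for mitochondrial carriers 3 rose and 4 fell in control cells, where 35.3% of all probe sets passed. Slc25a20, which exchanges acyl-carnitine for carnitine, read 624 and 716 at 0 h and 1830.3 and 1931 at 48 h, a rise of 1.32 (SE 0.13, adjusted p = 4.41e-06). Slc25a39, a carrier tied to heme synthesis and to glutathione import, went from 3023 and 2967 to 6506 and 6659, a rise of 1.10 (SE 0.12, adjusted p = 1.84e-05). Slc25a5, the ADP/ATP exchanger of dividing cells, fell on 2 of its 3 probe sets, by 0.68 and 0.59, and its brightest probe set changed by -0.48 with adjusted p = 0.0601. Slc25a5 is closely alike in sequence to Slc25a4, the exchanger of muscle and heart, and has many processed copies in the genome, so its probe sets may share signal. Slc25a4 itself lay between 13184 and 18233 on every control array and did not pass (-0.10, adjusted p = 0.639). Slc25a10, the dicarboxylate carrier, read 894 and 717 at 0 h and -10.9 and 265 at 48 h, so that the 48 h level is close to background. Its fall (adjusted p = 0.0162) was lost without control 48 h replicate 1 (0.161), control 0 h replicate 1 (0.0859) or replicate 2 (0.052).

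Single carriers of phosphate, taurine, fatty acids, zinc and choline were lower at 48 h, while their classes were mixed. Of 2 tested phosphate probe sets 1 rose and 1 fell, and of 17 for metals 2 rose and 2 fell, beside 35.3% of all. Slc20a1, the sodium-phosphate importer that also serves as a receptor for some retroviruses, read 2008 and 2204 at 0 h, 2899.5 and 3218 at 4 h, 1739 and 1649.7 at 12 h, 930.3 and 1209 at 24 h, and 743 and 548 at 48 h. After its high point at 4 h it was lower at each later time, with a fall of 1.53 from 0 to 48 h (SE 0.16, adjusted p = 9.8e-06). Slc34a1, another sodium-phosphate carrier, went from 184 and 179 to 307 and 378, a rise of 0.58 (adjusted p = 0.016) that was lost without control 0 h replicate 1 (0.0639), control 0 h replicate 2 (0.0728) or control 48 h replicate 2 (0.0994). Slc6a6, the taurine importer, fell by 0.97 on its weaker probe set (adjusted p = 0.000209), and its brighter probe set, at 4083 and 3548 at 0 h and 2459 and 2275 at 48 h, missed the threshold at -0.66 (adjusted p = 0.0555). Slc27a1, which helps bring long-chain fatty acids into the cell, went from 3877 and 2520.0 to 1629 and 1192. Its fall of 1.09 (adjusted p = 0.0137) was lost without control 0 h replicate 1 (0.131) or control 48 h replicate 2 (0.093). Slc39a6, a zinc importer, fell by 0.90 (adjusted p = 0.00197), and Slc44a1, a choline carrier, by 0.90 (adjusted p = 0.000214). Slc39a7, which releases zinc from the endoplasmic reticulum, rose by 0.37.

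The Sir2 arm asks the same of vector cells over a shorter span, from 12 to 36 h in differentiation medium, and amino acid carriers were among the largest rises. Of 11 tested amino acid probe sets 4 rose and 1, for Slc38a10, fell, where 32.1% of all probe sets passed. Slc7a5 read 451, 459 and 495 at 12 h and 3212, 3423 and 2974 at 36 h, a 6.84-fold difference and 2.75 log2 units (SE 0.11, adjusted p = 1.35e-08), larger than that of any other carrier in the fit. Slc6a9, the glycine importer, read 186, 167 and 199 and then 748, 785 and 786, a rise of 2.02 (SE 0.13, adjusted p = 4.04e-07). Slc1a4 went from 205, 221 and 248 to 522, 574 and 498, a rise of 1.21 (SE 0.13, adjusted p = 2.33e-05). None of these 3 has overlapping groups. Slc1a5, the glutamine carrier, read 8.87, 27.3 and 37.7 at 12 h and 58.5, 40.3 and 45.2 at 36 h. Its rise of 0.86 (adjusted p = 0.0358) was lost without vector 12 h replicate 1 (0.0949), vector 36 h replicate 1 (0.119) or vector 36 h replicate 3 (0.071). Slc7a1, the arginine and lysine importer, was dim by its mean and not tested, yet it read 4.53, 5.9 and 4.2 at 12 h and 43.8, 40.1 and 36 at 36 h in vector cells.

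Other carriers of the vector cells moved in either direction. Slc2a4, the insulin-responsive glucose carrier, was near background at 12 h (9.75, 21.6 and 8.64) and read 66.6, 81.9 and 88.2 at 36 h, a rise of 2.02 (SE 0.26, adjusted p = 0.00011). In the TSA arm both Slc2a4 probe sets were dim, and neither read above 124 on any array. Slc4a3, the chloride-bicarbonate exchanger of excitable tissues, went from 94.4, 112 and 134 to 407, 476 and 473, a rise of 1.92 (adjusted p = 2.91e-06). Slc12a2 went from 235, 309 and 182 to 850.3, 843 and 866, a rise of 1.81 (adjusted p = 7.81e-06). Slc12a7, which lets potassium and chloride out, moved against it, from 346, 430.2 and 382 to 145, 168 and 145, a fall of 1.29 (SE 0.12, adjusted p = 9.28e-06). Slc6a6 fell on both probe sets, by 0.39 and 0.44, and Slc8a1, Slc6a8 and Slc25a20 did not pass, at -0.06, 0.10 and -0.02. No mitochondrial carrier rose and 5 of 19 probe sets fell: both of Slc25a1, the citrate exporter, by 0.66 and 0.71, Slc25a10 by 0.95, the peroxisomal Slc25a17 by 0.55, and Slc25a4 by 0.31. Over all probe sets 32.1% passed in this comparison.

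The control and vector series share no arrays. Of 90 carrier probe sets tested in both arms, 26 passed for control 48 h against 0 h and 25 for vector 36 h against 12 h, and 10 passed in both, which is 38.5% of the 26 and 40% of the 25. Over all probe sets tested in both arms 1249 passed in both, which is 50.2% and 56.6% of the respective lists. Of these 10 carriers, 9 changed in the same direction. Slc7a5, Slc12a2 and Slc29a1 rose in both, and Slc25a10, Slc27a1, Slc39a6, Slc6a6, Slc35a1 and Slc11a2 fell in both. For Slc11a2 this held on 1 of its 2 tested probe sets, the weaker in the TSA arm. The other stood at 0.16 in control and 0.03 in vector cells without passing. The Slc11a2 call in vector cells (adjusted p = 0.0497) was lost in 5 of the 6 fits that left out 1 array. Slc29a1 passed on 1 of its 2 tested probe sets in each series, and Slc6a6 in control cells on its weaker one only. The control calls of Slc25a10, Slc27a1 and Slc35a1 depended on single arrays. With 1 array left out the Slc35a1 change in control cells ran from -0.841 to -0.296. In vector cells the calls of Slc35a1 and Slc39a6 were each lost in 3 of the 6 fits that left out 1 array. Slc39a7 was the exception, at 0.37 in control cells and -0.48 in vector cells. Of the 1249 probe sets 92.2% had the same direction. The spans differ, since vector cells have no 0 h group.

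**Figure D2:**
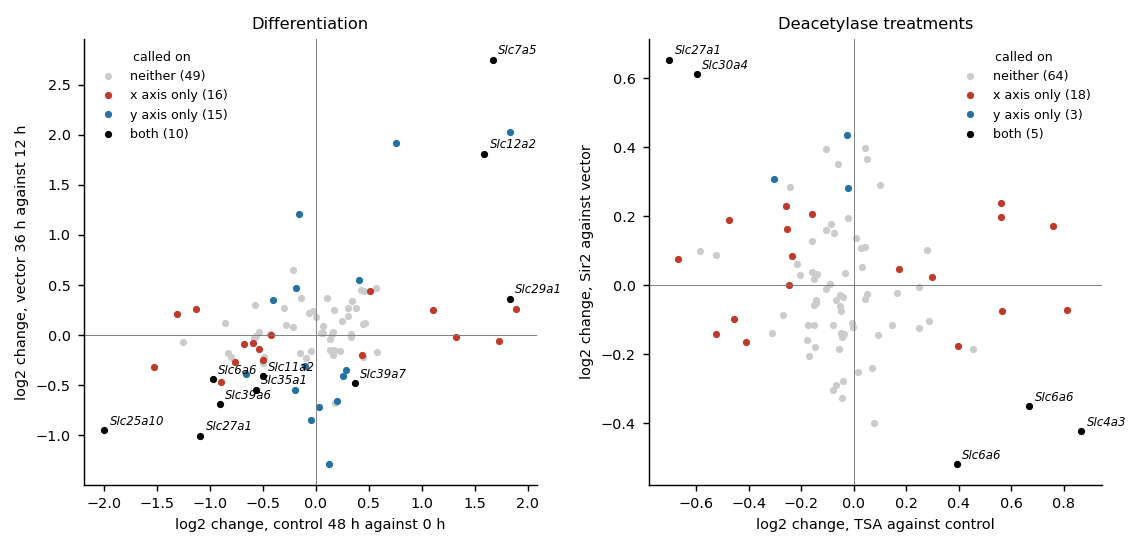
Each point is 1 of the 90 carrier probe sets tested in both arms, with its log2 change in the TSA arm on the x axis and in the Sir2 arm on the y axis, for differentiation (left) and for TSA and Sir2 (right). On the left 9 of the 10 black points share a sign, and on the right all 5 black points have opposite signs.

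The effect of TSA on carriers was followed time by time. At least 1 time passed for 37 of the 107 probe sets: 22 passed at 1 time, 11 at 2, 2 at 3 and 2 at 4. Of the 37, 13 were higher with TSA whenever they passed, 19 lower, and 5, from 4 genes, passed in both directions. Over all tested probe sets 36.5% passed at 1 time or more, beside 34.6% of the carriers, and 5.18% in both directions, beside 4.67%. These calls draw on the spread of all 20 arrays. With only the 4 arrays of a time in the fit, which leaves 2 against 2, 14 carriers passed at 0 h and 0 at 4, 12, 24 and 48 h, where 24, 23, 17 and 16 of the 107 had an unadjusted limma p under 0.05. Those are 22.4, 21.5, 15.9 and 15% of the carriers, beside 21.5, 17.3, 13.2 and 20.1% of all probe sets. The calls at 4 h to 48 h named below are therefore lost in that narrower fit.

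Slc20a1 and Slc23a2 passed at 3 and 4 of the 5 times of TSA, always higher. Slc20a1 read 4911 and 4648 with TSA at 0 h against 2008 and 2204 in controls, 4646 and 5387 against 2899.5 and 3218 at 4 h, and 4506 and 4662 against 1739 and 1649.7 at 12 h. TSA arrays were above control arrays at these times without overlap, with differences of 1.13, 0.69 and 1.37 log2 units. At 24 and 48 h the TSA arrays read 1304 and 1528, and 869.8 and 698, the last overlapping the controls, and neither time passed. The mean over the 5 times was 0.76 (SE 0.07, adjusted p = 9.34e-06). The 4 h call (adjusted p = 0.0141) was lost without control 4 h replicate 1 (0.115) or TSA 4 h replicate 2 (0.099). Slc20a1 therefore fell further in TSA-treated cells, by 2.42 from 0 to 48 h, than its fall of 1.53 in controls, and its effect of TSA differed between times (adjusted p = 0.00958). The other tested phosphate carrier, Slc34a1, was lower with TSA at 48 h, 214 and 164 against 307 and 378 (-0.56, adjusted p = 0.0347), a call lost without control 48 h replicate 2 (0.169) or TSA 48 h replicate 2 (0.186). Slc23a2, the sodium-coupled vitamin C importer, was higher with TSA at 4 of 5 times by the test, for example 1708 and 2030.3 against 949.9 and 1101 at 0 h and 1945 and 1746 against 1006 and 1164 at 4 h, with a mean of 0.56 (SE 0.06, adjusted p = 1.74e-05). Its 12 h call (adjusted p = 0.0068) was lost without TSA 12 h replicate 1 (0.0553), TSA 12 h replicate 2 (0.0629) or control 12 h replicate 2 (0.0689). The scaffold Slc9a3r1 read 3027 and 2842 with TSA at 0 h against 872 and 1031, a difference of 1.5 log2 units (SE 0.12, adjusted p = 4.84e-06). It was also higher with TSA at 4 h (0.68, adjusted p = 0.0025) and 24 h (0.53, adjusted p = 0.0196), and at 48 h its groups overlapped. The 24 h call depended on single arrays, with differences from 0.422 to 0.639 when 1 was left out.

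Slc6a6 and Slc4a3 had their largest differences with TSA at 48 h. Slc6a6 on its brighter probe set lay between 2945 and 4339 in both treatments up to 12 h. At 24 h the TSA arrays read 7181 and 7665 against 3254 and 3862, and at 48 h 13002 and 6081 against 2459 and 2275. The 48 h difference was 1.85 (SE 0.25, adjusted p = 0.000235), the weaker probe set gave 1.54, and the call held without any 1 of the 4 arrays of 48 h, although the TSA arrays differ widely from each other. The 24 h difference of 1.04 (adjusted p = 0.0259) was lost without any 1 of the 4 arrays of that time (adjusted p from 0.0759 to 0.151). Slc4a3 read 2489 and 1764 with TSA at 48 h against 455 and 396, a 5.0-fold difference between the means and 1.99 log2 units (SE 0.29, adjusted p = 0.000473), and it stayed at or below 481 on all TSA arrays before that. Slc4a3 was also higher with TSA at 4 h, 400.4 and 285 against 41.3 and 145 (1.08, adjusted p = 0.0301), lost without control 4 h replicate 1 (0.248), TSA 4 h replicate 1 (0.178) or TSA 4 h replicate 2 (0.0545). Its relative Slc4a2 was higher with TSA at 0 h, 1628 and 1767 against 1042 and 1190.1 (0.55, adjusted p = 0.0336), lost without any 1 of the 4 arrays of 0 h (adjusted p from 0.0734 to 0.196). Slc12a2 was lower with TSA at 24 h, 1080.4 and 1453 against 1945 and 2206 (-0.67, adjusted p = 0.0102), and higher at 48 h, 6619.8 and 7078 against 3801 and 3932 (0.80, adjusted p = 0.00122). The 24 h call was lost without control 24 h replicate 3 (0.0947) or TSA 24 h replicate 2 (0.0963).

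**Figure D3:**
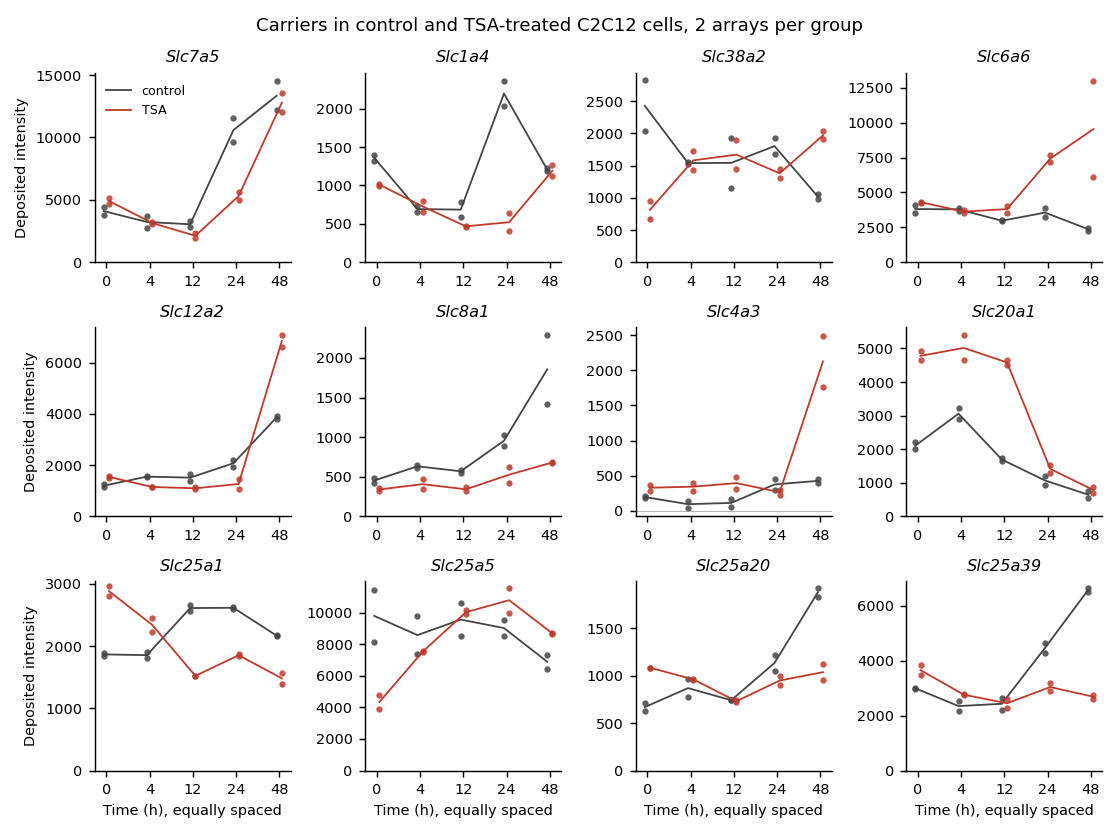
Deposited intensity of 12 carriers in control (grey) and TSA-treated (red) cells at 0, 4, 12, 24 and 48 h, with times equally spaced, points for the 2 arrays of a group and lines through their means. Slc20a1 lies apart between treatments up to 12 h, Slc7a5 and Slc1a4 at 24 h, and Slc6a6, Slc4a3, Slc25a20 and Slc25a39 at 48 h.

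Slc1a4 and Slc7a5, high at 24 h in controls, were lower with TSA at that time. Slc1a4 read 642 and 403 with TSA against 2364 and 2030.4 in controls at 24 h, a difference of -1.84 (SE 0.17, adjusted p = 4.79e-05). At 48 h it read 1118 and 1268 against 1193 and 1222, and the groups overlap. Slc7a5 read 5632 and 4973 against 11578 and 9604 at 24 h (-0.98, SE 0.17, adjusted p = 0.00458), and at 48 h 13560.0 and 12019 against 12164 and 14514, again with overlap. So Slc7a5 rose from 0 to 48 h under both conditions, by 1.67 in controls and 1.35 with TSA. Slc38a2 began low with TSA, 952 and 676 against 2028 and 2823 at 0 h (-1.43, SE 0.23, adjusted p = 0.000777), and ended high, 1906 and 2028 against 983 and 1056 at 48 h (0.86, adjusted p = 0.0186). That 48 h call was lost without any 1 of the 4 arrays of 48 h (adjusted p from 0.0535 to 0.0869). Between 4 and 24 h its groups did not differ by the test. The median change of the 12 amino acid probe sets at 24 h was 0.03, and the other 10 did not pass. Over all probe sets 5.94% passed at 24 h.

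Mitochondrial carrier calls went in both directions at 0 h and only downwards later, on few genes. At 0 h 3 of 20 probe sets were higher with TSA and 3 lower, where 17.9% of all probe sets passed. At 12, 24 and 48 h 2, 2 and 4 were lower and 0 higher, beside 4.08%, 5.94% and 19.6% of all. Some genes count more than once: the 0 h calls came from Slc25a1, Slc25a20 and Slc25a5, and both 12 h calls from Slc25a1. Slc25a1 on its brighter probe set read 2809.6 and 2960.2 with TSA against 1844 and 1890.0 at 0 h (0.59, SE 0.10, adjusted p = 0.000931). At 12 h the order was turned, with 1524 and 1519 against 2663 and 2560.4 (-0.73, adjusted p = 0.000872), and TSA stayed lower at 24 and 48 h (-0.47 and -0.51). The weaker probe set of Slc25a1 gave 0.67 at 0 h and -1.12 at 12 h. The 24 h call (adjusted p = 0.0123) was lost without any 1 of the 4 arrays of that time (adjusted p from 0.0586 to 0.0771). Slc25a5 was lower with TSA at 0 h on all 3 of its probe sets: the brightest read 4755 and 3920.3 against 11434 and 8139 (-1.14, SE 0.18, adjusted p = 0.000891), and the others gave -0.97 and -1.02. From 4 h on the 3 probe sets did not pass. Slc25a20 was higher with TSA at 0 h, 1087 and 1084 against 624 and 716 (0.60, adjusted p = 0.00449, lost without control 0 h replicate 1 at 0.0543), and lower at 48 h, 1122 and 955 against 1830.3 and 1931 (-0.78, SE 0.13, adjusted p = 0.000912). Slc25a39 read 2759.6 and 2612 with TSA against 6506 and 6659 at 48 h (-1.25, SE 0.12, adjusted p = 2.42e-05), so that its TSA values at 48 h lay below those at 0 h (3847 and 3465).

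Several 48 h differences concern carriers that rose in control cells. The 2 comparisons share the control 48 h arrays, so their values are given side by side and are not independent. Slc25a39 changed by 1.10 in controls from 0 to 48 h and by -0.43 with TSA. Slc25a20 changed by 1.32 and -0.06, the latter not passing. Slc8a1 changed by 1.72 and 0.78, reading 692 and 671 with TSA at 48 h against 2288 and 1425, a difference of -1.25 (SE 0.20, adjusted p = 0.001). Slc29a1 on its bright probe set changed by 1.83 and 2.74. With TSA this probe set went from 2112 and 2561 at 0 h, below the controls by 1.12 (adjusted p = 0.000678), to 16276 and 16426 at 48 h. The weak probe set of Slc29a1 did not share the rise with TSA, at -0.15, nor pass against controls at 0 h, at -0.30. At 48 h the bright one did not pass against controls and the weak one was lower with TSA (-0.90, adjusted p = 0.0385). Slc12a2 changed by 1.59 and 2.06.

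In the mean of TSA 1 of 17 metal probe sets was higher and 2 lower, and 1 of 2 fatty acid probe sets was lower. Over all probe sets 22% passed in that mean. Slc30a4, which moves zinc into vesicles, read 642 and 1101 with TSA at 4 h against 3495 and 3216, a difference of -1.83 (SE 0.37, adjusted p = 0.006), lost without TSA 4 h replicate 1 (0.0667). Its mean over the 5 times was -0.60 (SE 0.16, adjusted p = 0.0193), although at 12 and 24 h its TSA arrays lay within the range of the controls or overlapped it. Slc39a6 read 658 and 1128 against 1880.1 and 1880.4 at 4 h (-1.01, adjusted p = 0.00309) and had a mean of -0.47 (adjusted p = 0.00105). Slc27a1 read 1438 and 2141 against 3751 and 3531 at 4 h and 729 and 738 against 1761 and 1685 at 12 h. No time passed alone for Slc27a1, and its mean was -0.70 (SE 0.14, adjusted p = 0.00233). The probe sets of Slc11a2, the divalent metal importer, disagreed: one was higher with TSA at 24 and 48 h, by 0.96 and 1.01, and the other stood at -0.12 and -0.52 without passing. Slc35d1, which brings UDP-sugars into the endoplasmic reticulum, was higher with TSA at 48 h, 404 and 479 against 117 and 2.54, with controls close to background (1.61, adjusted p = 0.00154).

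Sir2 changed few carriers, and the clearest was Slc27a1. It read 354, 307 and 279 in Sir2 cells against 234, 237 and 243 in vector cells at 12 h, and 251, 209.7 and 218 against 91.7, 135 and 120.5 at 36 h. Every Sir2 array was above every vector array of its time. The 36 h difference was 0.93 (SE 0.14, adjusted p = 0.00156), or 1.96-fold between the means, and the mean over both times was 0.65 (SE 0.10, adjusted p = 0.0011). Slc30a4 read 420.2, 431 and 463 against 267, 299 and 266 at 12 h and 421, 466 and 364 against 228, 375 and 241 at 36 h, with 1 vector array inside the Sir2 range at 36 h. Its mean was 0.61 (SE 0.12, adjusted p = 0.00525). Slc39a7 passed at 36 h, with 799.5, 761 and 825 against 571, 547 and 472 (0.58, SE 0.12, adjusted p = 0.00811).

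Slc6a6 and Slc4a3 were lower in Sir2 cells. Slc6a6 on its brighter probe set read 1624, 1688 and 1514 against 2333, 2265 and 1995 at 12 h and 1376, 1566 and 1269.5 against 1675, 1755 and 1579.8 at 36 h. The groups do not overlap at either time, and the mean was -0.35 (SE 0.08, adjusted p = 0.0135), beside -0.52 for the weaker probe set. Slc4a3 overlapped at 12 h and read 261, 285 and 322 against 407, 476 and 473 at 36 h (-0.63, SE 0.16, adjusted p = 0.0282). The 36 h call of Slc4a3 was lost without Sir2 36 h replicate 1 (0.103) or replicate 2 (0.0732), or without vector 36 h replicate 2 (0.0871) or replicate 3 (0.0927). Slc12a7 was the only carrier whose Sir2 effect differed between the times: it read 234, 280.2 and 246 against 346, 430.2 and 382 at 12 h, and 168, 195 and 203 against 145, 168 and 145 at 36 h. The difference of the effects was 0.88 (SE 0.18, adjusted p = 0.0304). It was kept only without vector 12 h replicate 1, vector 36 h replicate 2 or Sir2 36 h replicate 1, and lost without any 1 of the other 9 arrays (adjusted p from 0.0501 to 0.0802). Slc2a4, Slc6a9 and Slc12a2, which rose in vector cells, did not pass for Sir2 at either time. Slc7a5 was higher in Sir2 cells at 12 h, 578, 739 and 667 against 451, 459 and 495 (0.48, adjusted p = 0.0276), a call lost without any 1 of the 6 arrays of 12 h other than Sir2 12 h replicate 1 (adjusted p from 0.0571 to 0.111).

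**Figure D4:**
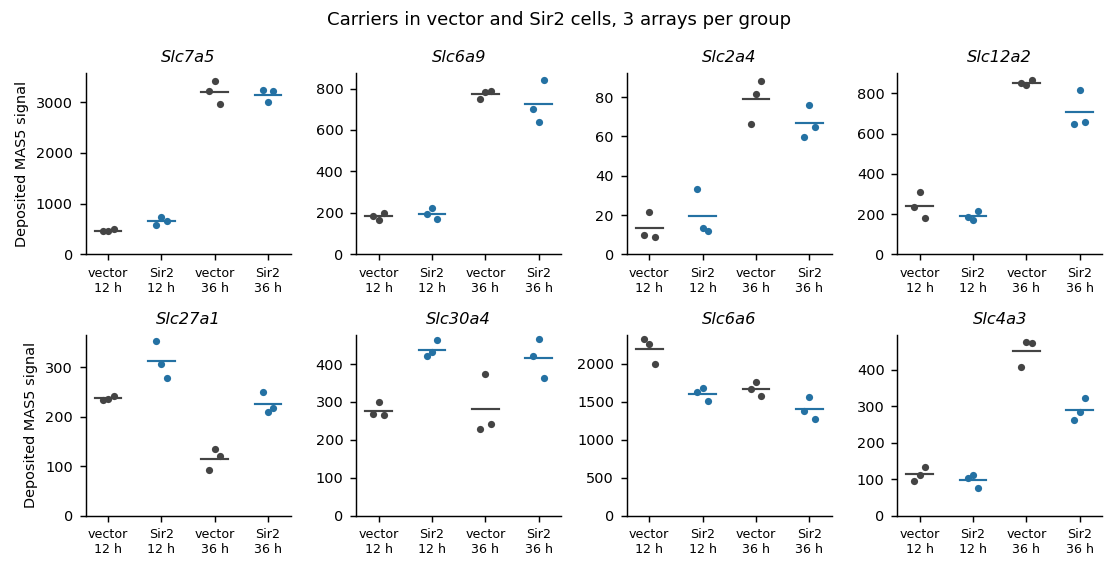
Deposited MAS5 signal of 8 carriers in vector (grey) and Sir2 (blue) cells at 12 and 36 h, with points for the 3 arrays of a group and bars at their means. Slc27a1 is higher on every Sir2 array than on every vector array of the same time, and Slc6a6 is lower on every one.

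TSA against control and Sir2 against vector share no arrays. Of the 90 carrier probe sets tested in both arms 23 passed for the mean of TSA and 8 for the mean of Sir2, and 5 passed in both, which is 21.7% of the 23 and 62.5% of the 8. The 5 belong to 4 genes and all 5 had opposite signs. Slc27a1 stood at -0.70 with TSA and 0.65 with Sir2, and Slc30a4 at -0.60 and 0.61. Slc4a3 stood at 0.87 and -0.42. The Sir2 mean of Slc4a3 (adjusted p = 0.0285) was lost without vector 12 h replicate 3, Sir2 12 h replicate 3, replicate 1 or 2 of Sir2 36 h, or replicate 2 or 3 of vector 36 h (adjusted p from 0.0521 to 0.0697). The pair of Slc6a6 probe sets stood at 0.67 and -0.35 and at 0.39 and -0.52. For Slc4a3 and the brighter Slc6a6 probe set the TSA difference did not have the same sign at every time. Among single times of TSA, Slc4a3 passed at 4 and 48 h only, and both Slc6a6 probe sets at 24 and 48 h only. Over all probe sets 357 passed in both, which is 22.6% and 41.2% of the respective lists, and 214 of them (59.9%) had opposite signs. In these 2 means the muscle markers moved the same way as Slc4a3 and Slc6a6. With TSA 6 of 11 were higher and 0 lower, beside 22% of all, and with Sir2 1 of 12 higher and 7 lower, beside 12.6%. Over time Slc6a6 went against them in control and vector cells, but not in TSA-treated cells. In controls 10 markers rose and 1 fell from 0 to 48 h, with Slc6a6 at -0.66 and -0.97. In vector cells 9 rose and 2 fell from 12 to 36 h, with Slc6a6 at -0.39 and -0.44 and Slc4a3 at 1.92. In TSA-treated cells 10 markers rose and 1 fell from 0 to 48 h, where 26.4% of all probe sets passed. Both Slc6a6 probe sets rose there too, by 0.905 and 1.024. The part of the muscle markers in these 4 genes was not tested.

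Carriers of glucose, lactate, creatine and carnitine passed few tests. Slc2a1, the glucose carrier of dividing cells, read 980.3 and 951 at 0 h and 639 and 360.0 at 48 h in controls, and its largest difference with TSA, -1.15 at 24 h, had adjusted p = 0.0885, with TSA arrays as far apart as 908 and 358. Slc16a1, a lactate carrier, was lower with TSA at 48 h, 322 and 226 against 469 and 672. That call (adjusted p = 0.0403) was lost without control 48 h replicate 2 (0.215), TSA 48 h replicate 1 (0.0511) or TSA 48 h replicate 2 (0.215). Slc6a8, the creatine importer, and Slc22a5, the carnitine importer, passed in no comparison of their brightest probe set, with differences in the mean of TSA of -0.05 (SE 0.13) and 0.15 (SE 0.13). Slc7a11, the cystine importer, was dim in both arms. Slc1a3, Slc5a3, Slc16a3, Slc20a2 and Slc40a1 have no probe set assigned to them here.

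Other named carriers serve inner membranes, metals and sugars. Of 12 probe sets for nucleoside and nucleotide sugar carriers 3 were higher and 2 lower in the mean of TSA, beside 22% of all. Slc35b1, which exchanges ATP and ADP across the endoplasmic reticulum, read 5126 and 4845 with TSA at 24 h against 3024 and 2867, a difference of 0.73 (SE 0.13, adjusted p = 0.0043), and its groups overlapped at 48 h. Slc48a1, a heme carrier of lysosomes, fell in TSA-treated cells from 1678 and 1423 at 0 h to 461 and 316 at 48 h, a fall of 1.69 (SE 0.25, adjusted p = 0.000284). In control cells Slc48a1 also fell, by 0.765 (adjusted p = 0.0319), a call lost in 3 of the 4 fits that left out 1 array. Slc37a4, which takes glucose 6-phosphate into the endoplasmic reticulum, was dim in the TSA arm and rose in vector cells from 75.7, 88.4 and 75.6 to 118, 136 and 127, by 0.61 (adjusted p = 0.00277). Slc31a1, the copper importer, had probe sets that differed: the weaker was lower with TSA at 48 h by 0.48 (adjusted p = 0.0152), and the brighter passed in no comparison. Slc50a1, a sugar carrier, was higher with Sir2 in the mean, by 0.31 (SE 0.08, adjusted p = 0.0221). That call was lost without Sir2 12 h replicate 1 (0.059), Sir2 36 h replicate 3 (0.0518) or vector 36 h replicate 2 (0.0577). The glucose carrier Slc2a3 passed in no comparison of either arm, and the zinc exporter Slc30a1 passed in none of the TSA arm and was dim in the Sir2 arm.

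Proteins that work beside carriers form a further list of 20 genes, 15 of them on the array with 21 probe sets tested in each arm. In control cells 4 of the 21 rose and 5 fell from 0 to 48 h, where 35.3% of all probe sets passed. In vector cells 7 rose and 5 fell from 12 to 36 h, where 32.1% of all passed. Txnip, which lowers glucose uptake, rose in both on 1 of its 2 probe sets, by 2.26 and 0.79. Tfrc, the transferrin receptor of iron uptake, fell in both on 1 of its 2 probe sets, by 1.73 and 1.26. The mean of TSA raised 6, among them Bsg, the chaperone of lactate carriers, by 0.51 (adjusted p = 3.57e-05), and lowered 4. The mean of Sir2 raised 4 and lowered 1. Over all probe sets 22% passed in the mean of TSA and 12.6% in the mean of Sir2. Of the ATP-driven ABC transporters 1 of 15 probe sets, for Abcg2, was higher in the mean of TSA, by 0.60, and none was lower. Of the Slco organic anion carriers only Slco3a1 was tested, and it was higher in the mean of TSA by 1.14 (SE 0.10, adjusted p = 7.03e-06).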

How the data were processed

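The 32 arrays were read from the deposited value table. In the TSA arm the authors deposited array intensities, 21 to 24.2% of them at or below 0, made by software not given in the sources used here. In the Sir2 arm the deposited intensity values are MAS5 signals, per the labels, with no version stated. Each arm was fitted separately with limma 3.58.1 in R 4.3.3 on log2(value + pseudocount), negative values set to 0. The pseudocounts were 137.7 (the 40th percentile, since the 20th was below 0) and 8.819 (the 20th). All groups of an arm entered 1 fit, with 10 and 8 residual degrees of freedom. Control probe sets were left out, and probe sets whose mean lay under the 40th percentile (144.9 and 31.07) were called dim and not tested. P-values were Benjamini-Hochberg adjusted over the 7453 tested probe sets. Genes were named from a list of well-known carriers and, by size, from those past the threshold whose groups did not overlap (for a mean, the same sign at every time), up to 10 or 6 per direction, each by its brightest probe set. Members and lists were chosen with earlier results of these data known. Alternatives changed the pseudocount, filter, normalization, variance model, groups in the fit, replicate block and single arrays. In the TSA arm 1 array of each 24 h and 48 h group has a letter b after its replicate number in the title. No array at 0, 4 or 12 h has it, and the labels do not explain it. A further alternative gave that letter a covariate. The fit was tested on simulated data.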

Additional observations from a re-analysis of the deposited data

Results flagged for a closer look

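The effect of TSA differed between the 5 times, by limma's moderated F test, for 23 carrier probe sets from 19 genes. By each gene's brightest probe set, the 8 smallest p-values were those of Slc25a1 (adjusted p = 6.88e-05), Slc25a39 (0.000192), Slc9a3r1 (0.000265), Slc12a2 (0.000585), Slc1a4 (0.000646), Slc25a20 (0.00135), Slc38a2 (0.00265) and Slc25a5 (0.00666). In the Sir2 arm the effect of Sir2 on Slc12a7 differed between 12 and 36 h (adjusted p = 0.0304). No explanation was tested for any of them.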

How the results depend on the processing

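Of 228 alternative counts of called carriers, 189 stayed within 1.5 times the main count and 39 did not. Of 132 named gene results 63 kept their call in every alternative, and 0 changed direction. With only the compared groups in the fit, 0 carriers passed for TSA at each of 4, 12, 24 and 48 h, 15 for control 48 h against 0 h, 14 for TSA-treated 48 h against 0 h and 2 for Sir2 at 12 h. Without the filter on dim probe sets 2 passed for Sir2 at 12 h, 2 at 36 h, 4 in the mean and 0 for the difference between times. A trended, robust variance gave 2 for that difference. Leaving out 1 array gave 4 to 6 for TSA at 4 h (lowest without TSA 4 h replicate 1), 5 to 7 at 24 h (lowest without control 24 h replicate 3), and 17 to 26 for control 48 h against 0 h (17 without either control 0 h array). It gave 1 to 3 for Sir2 at 12 h, 2 to 4 at 36 h and 5 to 10 in the mean (both lowest without Sir2 36 h replicate 2 or vector 36 h replicate 3), and 0 to 1 for the difference between times. The cause was not tested.

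Replicate numbers did not pair the arrays: same-numbered arrays had correlations of their deviations from -0.1 to 0.228 in the TSA arm and from -0.314 to 0.116 in the Sir2 arm. With a replicate block 15 carriers passed for TSA at 0 h and 10 at 4 h, beside 15 and 9 without it.

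Groups of 2 or 3 arrays limit what can be called, and the 77 and 82 dim carrier probe sets of the TSA and Sir2 arms have no test.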
